A study of Mus musculus with 6 samples.

Results

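The expression of 33 genes of the interferon response and of antigen presentation was examined in cultures of spermatogonial stem cells from the mouse, the cells that renew the male germline. The genes form a list of named sensors, transcription factors, antiviral effectors and class I antigen presentation genes, and all 33 were found by name among the 41053 gene names of the count files. Polyadenylated RNA was sequenced from 6 lines grown from adult cells in a medium based on StemPro-34. Each line descended from cells that had received, by electroporation, a plasmid encoding green fluorescent protein, were sorted for fluorescence and were subcloned. In the 3 wild-type lines the plasmid came without a guide RNA, and in the 3 lines labelled Ephb2-KO it came with a guide RNA against Ephb2, which encodes a receptor tyrosine kinase that binds ephrin-B ligands. Lines were numbered 1 to 3 in each genotype, those numbered 1 and 2 were at passage 20 and those numbered 3 at passage 18, and each line gave 1 library. Spread between libraries of a genotype therefore holds differences between subclones together with those that go with replicate number and passage. Passage 18 cannot be told apart from replicate number 3. Mouse strain is not given in the sources used here.

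Type I interferons are secreted proteins that signal through the receptor chains Ifnar1 and Ifnar2 to a transcription factor complex that includes Stat2 and Irf9. That complex binds the interferon-stimulated response element in promoters and switches on antiviral genes, while interferon gamma acts through gamma-activated sites. Cytosolic RNA sensors such as Ddx58 and Ifih1 set off interferon production, and class I molecules on the cell surface display peptides cut by the proteasome and carried into the endoplasmic reticulum by Tap1 and Tap2.

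Promoter sequences are shown because the response element is the feature through which these genes are known to be switched on, and because its presence can be set beside their levels. RefSeq promoter windows (GRCm38.p6, 250 bases before to 50 bases after each gene's start) were matched by symbol for 26 of the 33 genes. The core of the interferon-stimulated response element was searched on both strands as GAAA, any 2 bases and GAAA (TTTC, any 2 bases and TTTC on the other strand), and overlapping matches were counted apart. The sequences are the bases before each start, 5′ to 3′ on the gene's strand, without any that lie inside the gene as the deposited annotation draws it, and capitals mark the core. The genes are the 4 with the highest mean level among those holding the core (B2m, Bst2, Gbp3 and Ifit1) and the 2 highest without it (Oasl2 and H2-K1), and Ifit3 was added after its values were seen. Gbp2 and H2-D1 ranked among them and were passed over, since 61 and 250 bases of their windows lay inside the deposited gene.
B2m (plus strand, chr2:122147437-122147685): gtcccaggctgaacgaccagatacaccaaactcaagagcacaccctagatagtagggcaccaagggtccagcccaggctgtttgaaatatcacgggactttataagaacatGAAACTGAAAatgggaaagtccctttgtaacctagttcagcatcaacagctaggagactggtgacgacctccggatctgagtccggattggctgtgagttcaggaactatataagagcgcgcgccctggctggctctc
Bst2 (minus strand, chr8:71537473-71537722): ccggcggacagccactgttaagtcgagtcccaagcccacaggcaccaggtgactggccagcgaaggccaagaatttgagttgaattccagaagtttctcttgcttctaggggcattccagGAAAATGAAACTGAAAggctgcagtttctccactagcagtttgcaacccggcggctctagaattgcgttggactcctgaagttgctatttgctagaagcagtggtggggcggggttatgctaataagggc
Gbp3 (plus strand, chr3:142559794-142560043): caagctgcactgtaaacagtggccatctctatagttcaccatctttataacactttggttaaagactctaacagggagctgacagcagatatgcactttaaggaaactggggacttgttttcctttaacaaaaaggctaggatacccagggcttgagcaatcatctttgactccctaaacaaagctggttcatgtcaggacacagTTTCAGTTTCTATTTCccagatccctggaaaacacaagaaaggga
Ifit1 (plus strand, chr19:34640639-34640870): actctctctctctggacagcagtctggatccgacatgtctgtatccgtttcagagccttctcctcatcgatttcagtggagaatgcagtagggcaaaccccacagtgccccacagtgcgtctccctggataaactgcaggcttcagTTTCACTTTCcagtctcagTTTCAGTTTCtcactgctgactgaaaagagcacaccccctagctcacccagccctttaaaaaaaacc
Ifit3 (plus strand, chr19:34583279-34583528): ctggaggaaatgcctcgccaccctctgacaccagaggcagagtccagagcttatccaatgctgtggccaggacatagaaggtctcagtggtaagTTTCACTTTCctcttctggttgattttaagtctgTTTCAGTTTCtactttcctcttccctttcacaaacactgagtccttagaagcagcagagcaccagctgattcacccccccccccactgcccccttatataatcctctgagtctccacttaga
Oasl2 (plus strand, chr5:114896684-114896933): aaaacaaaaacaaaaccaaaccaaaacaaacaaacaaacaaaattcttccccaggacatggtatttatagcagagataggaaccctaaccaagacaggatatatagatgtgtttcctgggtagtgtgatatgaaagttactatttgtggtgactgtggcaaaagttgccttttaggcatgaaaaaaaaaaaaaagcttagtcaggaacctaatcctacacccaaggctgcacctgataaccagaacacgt
H2-K1 (minus strand, chr17:34000348-34000597): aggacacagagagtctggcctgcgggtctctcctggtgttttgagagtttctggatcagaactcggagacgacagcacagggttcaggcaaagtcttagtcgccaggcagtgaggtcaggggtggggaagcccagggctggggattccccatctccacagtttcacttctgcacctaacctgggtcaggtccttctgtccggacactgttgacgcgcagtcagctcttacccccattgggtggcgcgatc
Bst2 and Gbp3 each hold 2 overlapping copies of the core, Ifit1 and Ifit3 each hold 2 separate copies on the other strand, and B2m holds 1. The core occurred in the windows of 14 of the 26 matched genes (53.8%), against 3.99% of the 27025 genes and 3.44% of the 32851 promoters in the table. Isg15 held 3 overlapping copies, with first bases 78, 72 and 66 bases before the start. In Ddx58 and Ifih1 the match began 2 and 32 bases after the start. The gamma-activated site, searched as TTCNNNGAA, which is its own reverse complement, occurred in 4 of the 26 genes (15.4%), against 9.55% of all genes in the table. Psmb9 and Tap1 point away from each other, with RefSeq starts 226 bases apart, so their windows overlap; neither holds the response element core. A match is a description of letters in this window and not a measured binding site. Only these exact spellings were searched. A gene without a match, H2-K1 among them, may hold a response element that is spelled otherwise.

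The libraries held between 21772404 and 34047758 counts, and levels are given as CPM, counts scaled by TMM-adjusted library size. A level of 3 counts, the floor used for a gene at 0, corresponds to between 0.0803 and 0.147 CPM, which covers counting error only. A filter on low counts left 15263 genes for testing, and 31 of the 33 listed genes were among them. Ephb2 (chr4:136647539-136835988, minus strand) was at 21.3, 27.1 and 10.8 CPM in the wild-type lines numbered 1, 2 and 3 and at 37.1, 16.5 and 13.4 CPM in the Ephb2-KO lines of the same numbers. The groups overlapped, and edgeR's quasi-likelihood test gave a log2 difference of 0.18 (SE 0.50) with a Benjamini-Hochberg adjusted p of 1.0, a difference whose sign turned without wild-type replicate 3 or Ephb2-KO replicate 1. Ephb2 mRNA was thus not detectably lower in the libraries labelled Ephb2-KO, and the count says nothing of the edited sequence. All 12 spermatogonial markers were counted in every library, with a summed level of 2541 to 3164 CPM at passage 20 and 1522 to 1769 CPM at passage 18. The 14 fibroblast or stromal markers were also counted in every library, with a summed level of 3652 to 7260 CPM at passage 20 and 19154 to 23342 CPM at passage 18. The 10 leukocyte markers summed to 10.5 to 15.4 CPM at passage 20 and 15.8 to 16.3 CPM at passage 18, with Cd3e at 0 in all libraries and 7 of the 10 under 1 CPM throughout. Of the 3 that were tested, Lyz2 rose at passage 18, from between 0.313 and 1.31 CPM to 3.09 and 3.54 CPM (log2 difference 2.39, SE 0.42, edgeR adjusted p = 0.000886). Csf1r had 1.405 (SE 0.56, adjusted p = 0.0586) and Cd14, which made up most of the sum, 0.06 (SE 0.19, adjusted p = 0.809). The part of leukocytes in the results that follow was not tested. In bulk RNA, fewer cells of a type and less RNA per cell cannot be told apart.

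The listed genes differed between replicate numbers, and no difference between genotypes passed the test. Of the 31 tested genes, 19 were higher at passage 18 than at passage 20 and 0 were lower (2, Gbp2 and Gbp3, without Ephb2-KO replicate 1 or 3), with a median log2 difference of 1.26 over the 31 genes and -0.03 over all tested genes. Across all tested genes 25.0% were called higher and 48.0% in either direction in that comparison, by edgeR's quasi-likelihood test with Benjamini-Hochberg adjustment at 0.05. Between genotypes edgeR called 0 of the 31 genes and 0 genes in all (0.0%). With the replicate number as a block it called 0 of the 31 and 4 in all (0.0262%).

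**Figure D1:**
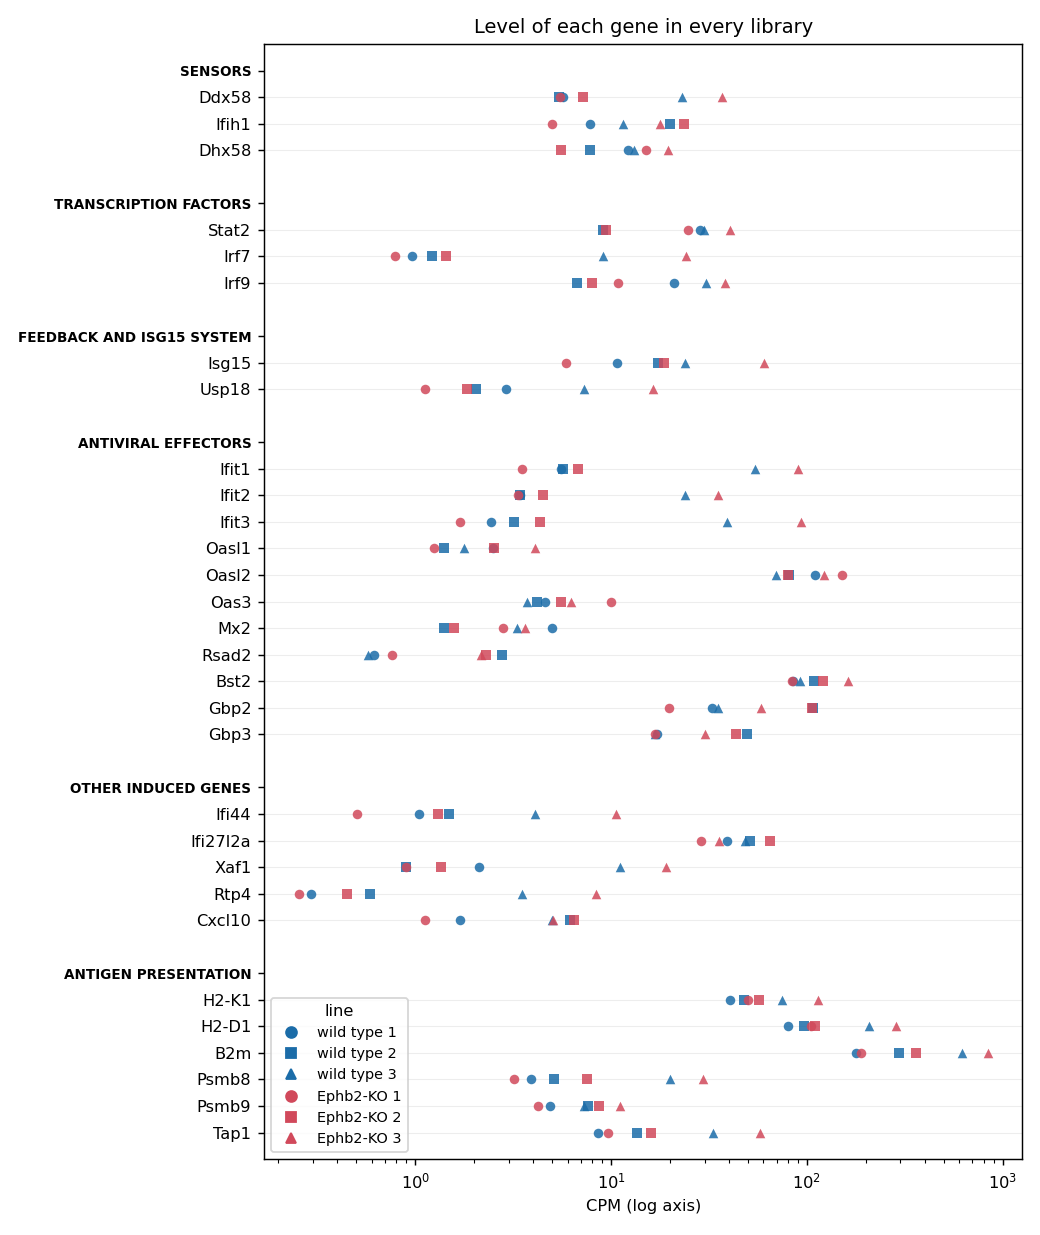
Level of 30 genes in every library, in CPM on a log axis, grouped by role; colour marks genotype and shape marks replicate number, and the 3 genes with a mean under 1 CPM are left out. For Ifit1, Ifit2, Ifit3, Irf7, Xaf1 and Rtp4 both triangles (replicate 3, passage 18) sit to the right of the other 4 libraries, while the squares (replicate 2) sit to the right for Gbp2 and Gbp3.

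Per kilobase of exon, which allows levels to be compared between genes, B2m had a mean of 479.6 CPM per kb over the 6 libraries, followed by Bst2 at 142, Ifi27l2a at 96.5, H2-D1 at 57.1 and Isg15 at 30.2 CPM per kb. B2m encodes the light chain shared by class I molecules, and Bst2 the membrane protein tetherin, which holds budding virus at the cell surface. In the 4 passage 20 libraries alone Isg15 was at 17.4 CPM per kb, below Oasl2 at 27.2, Gbp2 at 26.4 and H2-K1 at 18.7, while B2m, Bst2, Ifi27l2a and H2-D1 were the highest in that order there too. The 4 lowest means over the 6 libraries were those of Oas1a at 0.426, Rsad2 at 0.354, Oas2 at 0.174 and Mx1 at 0.0817 CPM per kb. Reads that map to several places were left out of the authors' counts, so the levels of genes with near-identical copies are uncertain. The 50-base stretches of each gene's transcripts were taken from a later GENCODE release than the one used for the counts. Of these, 57.6% of those of Oas1a and 51.2% of those of Ifit3 also occur in another gene (Oas1g and Oas1b, and Ifit3b). The same holds for 12.8% of those of H2-D1, 11.6% for Rtp4 (shared with Gm45338) and 9.63% for H2-K1.

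**Figure D2:**
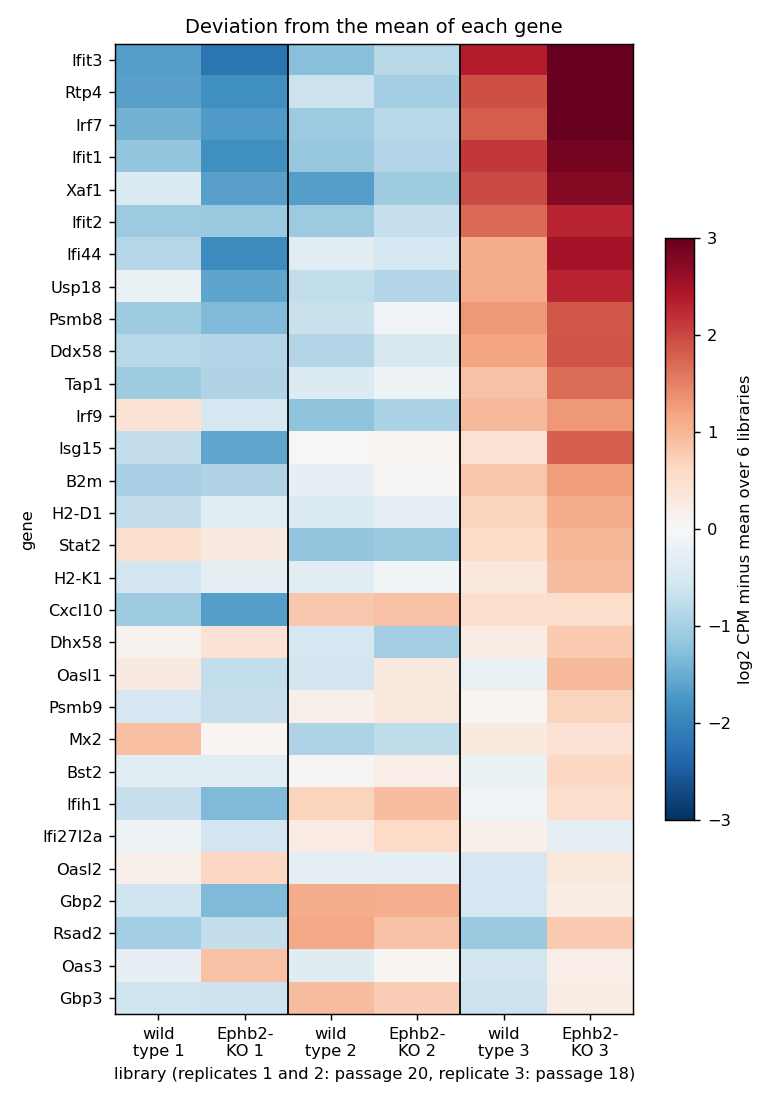
Deviation of each library from the mean of each gene, in log2 CPM, for the 30 genes with a mean of at least 1 CPM, ordered by passage difference; libraries are paired by replicate number. The 2 columns of replicate 3 are red for most genes in the upper rows, while those of replicate 2 are red for Gbp2, Gbp3, Rsad2, Cxcl10 and Ifih1.

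Among the cytosolic RNA sensors, Ddx58 (RIG-I, chr4:40203773-40239828) was at 5.65, 5.41 and 22.9 CPM in the wild-type lines numbered 1, 2 and 3 and at 5.47, 7.16 and 36.8 CPM in the Ephb2-KO lines of the same numbers. Both libraries of replicate 3 lay above the other 4. Ddx58 rose at passage 18 by a log2 difference of 2.31 (SE 0.19), a 4.95-fold difference (adjusted p = 4.00e-06, edgeR). Dhx58 (LGP2), which modulates the other sensors, was at 12.2, 7.80 and 13.1 CPM in the wild-type libraries and 15.2, 5.58 and 19.5 CPM in the Ephb2-KO libraries. The replicate 2 libraries were low, and the other 4 overlapped between passages; the log2 difference at passage 18 was 0.75 (SE 0.23) with an edgeR adjusted p of 0.0178, a call lost without Ephb2-KO replicate 2 (0.52), without Ephb2-KO replicate 3 (0.42) and with replicate numbers 1 and 2 pooled in 1 term (0.65). Ifih1 (MDA5), the sensor of long double-stranded RNA, was at 7.77, 19.9 and 11.6 CPM in the wild-type libraries and 5.02, 23.6 and 17.9 CPM in the Ephb2-KO libraries. Replicate 2 was high and replicate 1 low in both genotypes, and the passage test gave 0.31 (SE 0.24, edgeR adjusted p = 0.326), so 2 of the 3 sensors passed it. Ifih1 was called higher at passage 18 when wild-type replicate 1 was left out (0.57).

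All 3 transcription factors passed the passage test. Irf7 (chr7:141262706-141266481), which drives the later wave of interferon genes, was at 0.964, 1.21 and 9.12 CPM in the wild-type libraries and 0.789, 1.44 and 24.0 CPM in the Ephb2-KO libraries. The replicate 3 libraries lay far above the other 4, which stayed between 0.789 and 1.44 CPM, and the log2 difference was 3.82 (SE 0.32), 14.1-fold (edgeR adjusted p = 3.99e-06). Irf9, the DNA-binding subunit of the complex, was at 20.9, 6.70 and 30.7 CPM in the wild-type libraries and 10.9, 8.01 and 38.3 CPM in the Ephb2-KO libraries. Here wild-type replicate 1 was also well above the replicate 2 libraries, yet passage 18 remained apart from passage 20 in range, with 1.69 (SE 0.25, edgeR adjusted p = 0.000390). Stat2, its partner, was at 28.4, 9.13 and 29.7 CPM in the wild-type libraries and 24.7, 9.41 and 40.4 CPM in the Ephb2-KO libraries. Replicate 2 was low in both genotypes and replicate 1 lay close below replicate 3 in the wild type. The log2 difference was 1.15 (SE 0.17, edgeR adjusted p = 0.000290), a call lost when replicate numbers 1 and 2 were pooled in 1 term (0.96).

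Isg15, a ubiquitin-like protein joined to other proteins after interferon, was at 10.7, 17.3 and 23.8 CPM in the wild-type libraries and 5.92, 18.5 and 60.5 CPM in the Ephb2-KO libraries. Ephb2-KO replicate 3 stood above all others and wild-type replicate 3 was next. The passage difference was 1.73 (SE 0.45) with an edgeR adjusted p of 0.0306, and the call was lost without Ephb2-KO replicate 3 (0.79), without either replicate 2 library (1.65 and 1.75), without the filter on low counts (1.69) and with replicate numbers 1 and 2 pooled in 1 term (1.61). Usp18, which removes Isg15 from proteins and dampens receptor signalling, was at 2.92, 2.04 and 7.26 CPM in the wild-type libraries and 1.13, 1.85 and 16.5 CPM in the Ephb2-KO libraries. Both replicate 3 libraries exceeded the other 4, and the passage difference was 2.58 (SE 0.45), 5.99-fold (edgeR adjusted p = 0.00212).

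The 3 Ifit genes, whose proteins bind foreign RNA and block its translation and which lie together on chromosome 19, had the same order of libraries. Ifit3 (chr19:34583531-34588731) was at 2.44, 3.21 and 39.2 CPM in the wild-type libraries and 1.69, 4.32 and 93.3 CPM in the Ephb2-KO libraries. Ifit1 (chr19:34640871-34650009) was at 5.57, 5.68 and 54.0 CPM in the wild-type libraries and 3.50, 6.80 and 90.5 CPM in the Ephb2-KO libraries. Ifit2 (chr19:34550694-34576419) was at 3.43, 3.45 and 23.7 CPM in the wild-type libraries and 3.35, 4.50 and 35.3 CPM in the Ephb2-KO libraries. In each of the 3, replicate 3 of both genotypes was above all 4 passage 20 libraries, and within replicate 3 the Ephb2-KO library was above the wild-type one. The passage difference on the log2 scale was 4.47 (SE 0.31) for Ifit3, or 22.2-fold (edgeR adjusted p = 1.59e-05). For Ifit1 it was 3.74 (SE 0.24), or 13.3-fold (edgeR adjusted p = 2.94e-06). For Ifit2, whose promoter window holds no response element core, it was 2.98 (SE 0.19), or 7.91-fold (edgeR adjusted p = 6.01e-07).

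Oas proteins make the short oligoadenylates that activate RNase L, and none of the tested members of the family passed the passage test. Oas3 (chr5:120753098-120777661) was at 4.58, 4.19 and 3.71 CPM in the wild-type lines numbered 1, 2 and 3 and at 9.95, 5.58 and 6.24 CPM in the Ephb2-KO lines of the same numbers. It was the 1 listed gene whose genotype ranges did not overlap, with 3.71 to 4.58 CPM in the wild type and 5.58 to 9.95 CPM in the Ephb2-KO libraries. Such a gap with the Ephb2-KO libraries higher was seen in 0.839% of all tested genes and with them lower in 1.55%, the latter in 0 of the 31. Oasl2 (chr5:114896936-114912234), an Oas-like protein, was at 109, 80.8 and 69.6 CPM in the wild-type libraries and 152, 80.0 and 122 CPM in the Ephb2-KO libraries. Replicate 1 of the Ephb2-KO lines was high, the replicate 2 libraries were nearly equal, and the passage difference was -0.14 (SE 0.16, edgeR adjusted p = 0.515). Oasl1, which restrains Irf7 translation, was at 2.49, 1.41 and 1.77 CPM in the wild-type libraries and 1.24, 2.52 and 4.08 CPM in the Ephb2-KO libraries. The groups overlapped and neither the replicate number (edgeR adjusted p = 0.554) nor the passage with 0.54 (SE 0.45) and an adjusted p of 0.343, separated the libraries. Oas1a and Oas2 stayed between 0.141 and 2.65 CPM. Oas2 was too low for the filter, and without it was called higher at passage 18, with 2.99 (edgeR adjusted p = 4.90e-06). Without wild-type replicate 1, Oas1a (2.39) and Oasl1 (1.08) were also called higher at passage 18.

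Mx2, a dynamin-like antiviral GTPase, was at 5.01, 1.41 and 3.30 CPM in the wild-type libraries and 2.82, 1.58 and 3.63 CPM in the Ephb2-KO libraries. Replicate 2 was low in both genotypes, and the replicate number test passed (edgeR adjusted p = 0.0261) while the passage difference was 0.53 (SE 0.32, adjusted p = 0.198). Mx2 was called higher at passage 18 without wild-type replicate 1 (0.79). Mx1, its relative, had between 0 and 16 counts and was not tested. Rsad2 (viperin), which makes a chain-terminating nucleotide, was at 0.616, 2.78 and 0.578 CPM in the wild-type libraries and 0.761, 2.30 and 2.16 CPM in the Ephb2-KO libraries. Both replicate 2 libraries and Ephb2-KO replicate 3 were above 2 CPM and the other 3 under 1 CPM, with a passage difference of -0.10 (SE 0.49, edgeR adjusted p = 0.891).

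Bst2 (chr8:71534264-71537437) was at 84.5, 109 and 92.4 CPM in the wild-type libraries and 83.7, 121 and 162 CPM in the Ephb2-KO libraries. Ephb2-KO replicate 3 was high and the other 5 lay between 83.7 and 121 CPM, so that the passage difference of 0.33 (SE 0.16) did not pass (edgeR adjusted p = 0.115). That difference was 0.44 and passed without wild-type replicate 1, and was 0.69 without wild-type replicate 3. The guanylate-binding proteins Gbp2 and Gbp3, interferon-induced GTPases that act on the membranes of pathogens, had another order of libraries. Gbp2 (chr3:142620602-142638008) was at 32.7, 108 and 34.9 CPM in the wild-type libraries and 19.7, 106 and 58.2 CPM in the Ephb2-KO libraries. Gbp3 (chr3:142560052-142573209) was at 17.1, 49.6 and 16.7 CPM in the wild-type libraries and 16.8, 43.5 and 30.2 CPM in the Ephb2-KO libraries. In both genes the 2 replicate 2 libraries were above the other 4, and the replicate number test passed (edgeR adjusted p = 0.00472 for Gbp2 and 0.00116 for Gbp3). The call for Gbp2 was lost without either replicate 2 library, at adjusted p of 0.273 and 0.122. The passage difference was -0.18 (SE 0.28) for Gbp2 and -0.30 (SE 0.21) for Gbp3, and neither passed. Both were called lower at passage 18 without Ephb2-KO replicate 1 (-0.48 for Gbp2 and -0.40 for Gbp3) and without Ephb2-KO replicate 3 (-0.77 and -0.80). The summed endothelial markers were also highest in replicate 2, at 14.7 and 15.5 CPM against 6.64 to 9.04 CPM in the other 4 libraries. Of the 5 markers, Emcn and Cdh5 went otherwise. Emcn was at 0.705 and 0.270 CPM in replicate 2 and at 2.39 and 2.21 CPM in replicate 3. Cdh5, under 1 CPM throughout, was at 0.235 and 0.0450 CPM in replicate 2 and highest in Ephb2-KO replicate 1, at 0.310 CPM. The summed Sertoli cell markers were likewise highest in replicate 2, at 84.8 and 87.5 CPM against 48.9 to 71.4 CPM. Fshr was at 0 in all libraries. Sox9 and Dhh, the latter under 1 CPM throughout, were highest in both replicate 2 libraries. Gata4 and Amh were highest in replicate 1, Gata4 at 16.4 and 19.3 CPM against 9.72 and 11.03 CPM in replicate 2. Wt1 was at 35.1 CPM in Ephb2-KO replicate 1, above Ephb2-KO replicate 2 at 33.9 CPM. The part of either cell type in the Gbp levels was not tested.

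Of the 5 other induced genes, 4 rose at passage 18. Rtp4, a chaperone of surface receptors that binds nucleic acid, was at 0.295, 0.588 and 3.51 CPM in the wild-type libraries and 0.254, 0.450 and 8.35 CPM in the Ephb2-KO libraries. Xaf1, a regulator of cell death, was at 2.12, 0.901 and 11.1 CPM in the wild-type libraries and 0.902, 1.35 and 19.1 CPM in the Ephb2-KO libraries. Ifi44 was at 1.04, 1.49 and 4.08 CPM in the wild-type libraries and 0.507, 1.31 and 10.7 CPM in the Ephb2-KO libraries. Both replicate 3 libraries exceeded all others for these 3 genes. Their passage differences were 3.86 (SE 0.41) for Rtp4 (edgeR adjusted p = 2.36e-05), 3.51 (SE 0.37) for Xaf1 (4.83e-05) and 2.76 (SE 0.43) for Ifi44 (0.000494). Cxcl10, a chemokine that attracts T cells, was at 1.69, 6.19 and 4.99 CPM in the wild-type libraries and 1.13, 6.48 and 5.06 CPM in the Ephb2-KO libraries. Replicate 1 was low and replicate 2 high in both genotypes, with replicate 3 between them, and the call on the passage difference of 0.75 (SE 0.27, edgeR adjusted p = 0.0378) was lost in 7 of 12 alternatives. Ifi27l2a, a small membrane protein, was at 38.9, 51.5 and 48.2 CPM in the wild-type libraries and 28.8, 65.1 and 35.7 CPM in the Ephb2-KO libraries. Its libraries overlapped between passages, with -0.09 (SE 0.17, edgeR adjusted p = 0.696).

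Class I antigen presentation genes had their highest mean in replicate 3, and 5 of 6 passed the passage test. B2m (chr2:122147686-122153083) was at 178, 294 and 617 CPM in the wild-type lines numbered 1, 2 and 3 and at 188, 359 and 839.7 CPM in the Ephb2-KO lines of the same numbers. Replicate 3 was high and replicate 1 low in both genotypes, with group means of 363 ± 228 CPM (SD, n = 3) in the wild type and 462 ± 338 CPM (SD, n = 3) in the Ephb2-KO lines. Its passage difference was 1.57 (SE 0.12) on the log2 scale, 2.96-fold (edgeR adjusted p = 2.24e-06). The heavy chain gene H2-D1 (chr17:35262730-35267499) was at 79.8, 96.9 and 208 CPM in the wild-type libraries and 104, 109.9 and 284 CPM in the Ephb2-KO libraries. The other heavy chain gene, H2-K1 (chr17:33996017-34000333), was at 40.5, 47.8 and 74.8 CPM in the wild-type libraries and 50.2, 56.6 and 114 CPM in the Ephb2-KO libraries. Replicate 3 of both genotypes lay above the other 4 libraries for both, with passage differences of 1.33 (SE 0.12) for H2-D1 (edgeR adjusted p = 5.65e-06) and 0.93 (SE 0.13) for H2-K1 (0.000173). Heavy chain genes differ between mouse strains, and the match of these lines to the reference sequence was not tested.

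Tap1 (chr17:34187553-34197225), a subunit of the peptide transporter, was at 8.60, 13.6 and 32.96 CPM in the wild-type libraries and 9.61, 16.1 and 57.3 CPM in the Ephb2-KO libraries. Psmb8 (chr17:34197721-34201454), a catalytic subunit of the immunoproteasome, was at 3.88, 5.09 and 19.9 CPM in the wild-type libraries and 3.21, 7.52 and 29.4 CPM in the Ephb2-KO libraries. Both genes had their replicate 3 libraries above the rest, and rose at passage 18 by 1.92 (SE 0.17) for Tap1 (edgeR adjusted p = 6.64e-06) and 2.36 (SE 0.21) for Psmb8 (6.89e-06). Psmb9, another immunoproteasome subunit, which lies head to head with Tap1, was at 4.90, 7.64 and 7.26 CPM in the wild-type libraries and 4.26, 8.64 and 11.1 CPM in the Ephb2-KO libraries. Its replicate 2 and 3 libraries overlapped, and the passage difference of 0.56 (SE 0.23) did not pass (edgeR adjusted p = 0.0662). Without wild-type replicate 1 it was 0.70 and passed. Whether Psmb8 and Psmb9 differed in their passage difference was not tested.

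**Figure D3:**
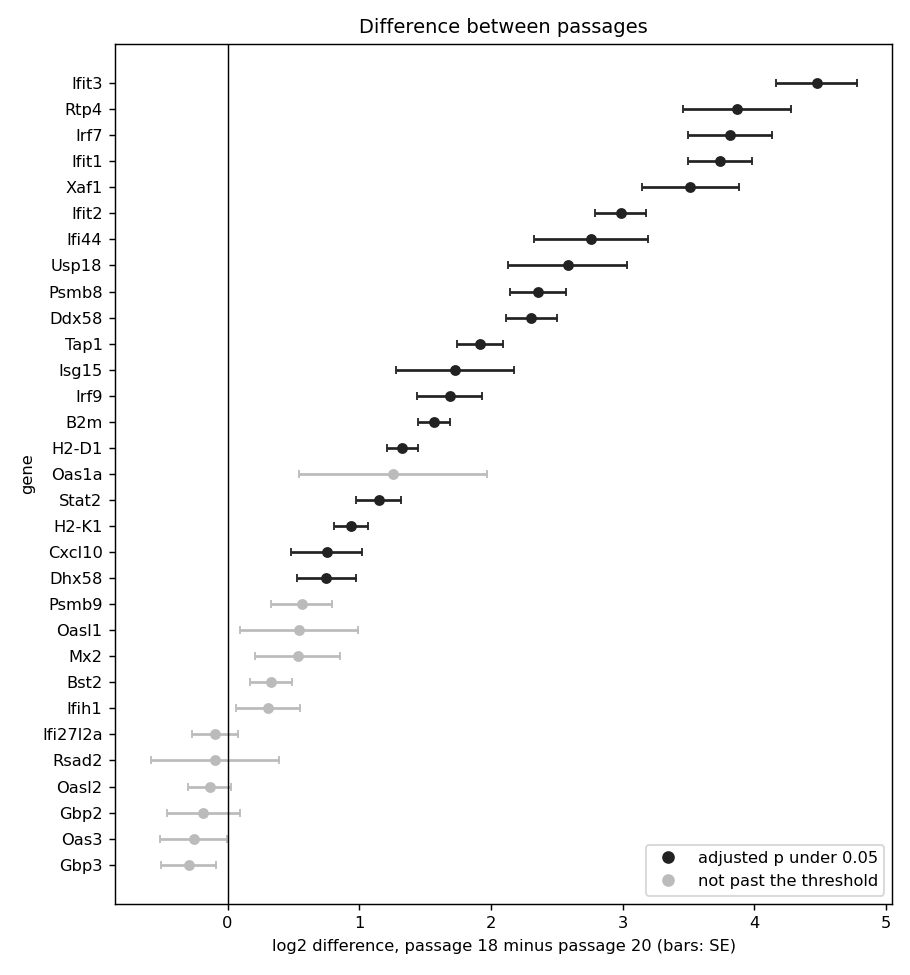
Difference between passage 18 and passage 20 for the 31 tested genes, as log2 fold change with its SE from the edgeR fit with genotype and replicate number; black points passed the threshold of 0.05 on the adjusted p and grey points did not. The 19 black points are all to the right of 0, from 0.75 for Dhx58 to 4.47 for Ifit3.

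Over the whole list, 17 of the 31 tested genes had passage 18 libraries above all passage 20 libraries in CPM, against 26.9% of all tested genes. By role, 2 of 3 sensors, 3 of 3 transcription factors, 2 of 2 genes of the Isg15 system, 3 of 12 tested antiviral effectors, 4 of 5 other induced genes and 5 of 6 antigen presentation genes rose. Across all tested genes 25.0% were called higher at passage 18, the same share as among the antiviral effectors (25.0%). A test of any difference between the 3 replicate numbers called 27 of the 31 genes (87.1%), against 54.2% of all tested genes. Of the 27 calls, 19 held in all 11 alternatives. The other 8 were lost in at least 1: Psmb9, Isg15, Usp18, Mx2, Rsad2, Gbp2, Dhx58 and Ifi27l2a. The 4 genes not called were each called in at least 1. Among the 27 called genes, the mean was highest in replicate 3 for 19, in replicate 2 for 6 and in replicate 1 for 2. The shares over all called genes were 44.5%, 30.04% and 25.5%. Replicate number accounted for a median of 88.7% of the sum of squares of log2 CPM (82.6% over all genes) and genotype for 1.44% (3.92%). The response element core stood in the promoter window of 7 of the 16 matched genes that rose at passage 18 (43.8%) and in 7 of the 10 matched and tested genes that did not (70.0%). The summed level of the 33 genes was 718, 964 and 1523 CPM in the wild-type libraries and 755, 1087 and 2282 CPM in the Ephb2-KO libraries. Fibroblast or stromal markers were at 3652, 5879 and 19154 CPM in the wild-type libraries and 5830, 7260 and 23342 CPM in the Ephb2-KO libraries, so both sums were highest in replicate 3. Of these 14 markers 12 rose at passage 18, with a median log2 difference of 2.17 over the 14. Twist1 was called lower, with -0.52 (edgeR adjusted p = 0.0186), and Thy1 had -0.21 and was not called. The part of those cells in the interferon gene levels was not tested.

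**Figure D4:**
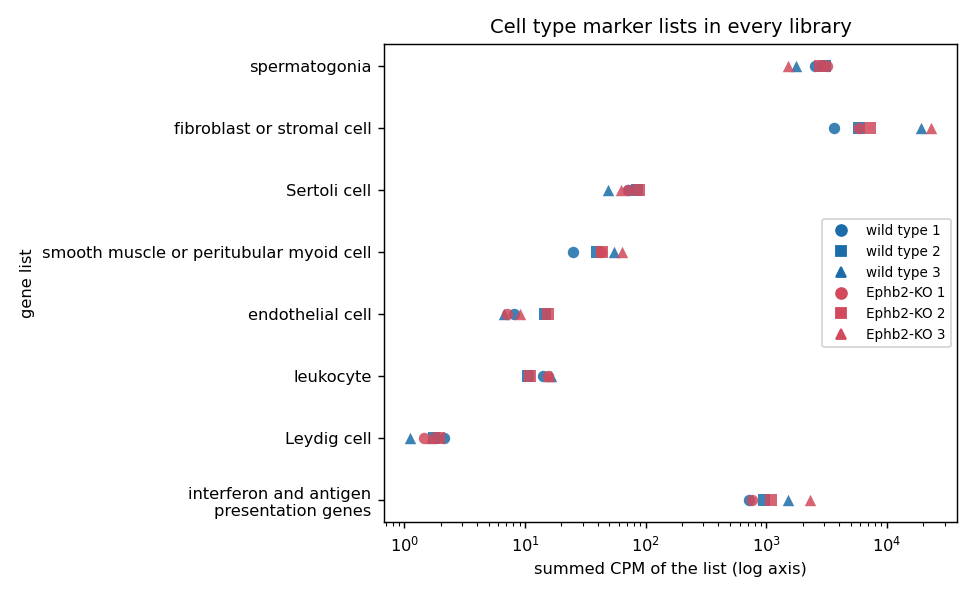
Summed CPM of each cell type marker list and of the 33 genes in every library, on a log axis; colour marks genotype and shape marks replicate number. Fibroblast or stromal markers and the interferon and antigen presentation genes have their 2 highest sums in replicate 3, where the spermatogonial sum is lowest (1522 to 1769 CPM).

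The comparison of genotypes asked whether lines labelled Ephb2-KO differed from wild-type lines, the question named in the title of the series for proliferation and stem cell activity. Without the block, the 31 genes had a median log2 difference of 0.45 (0.01 over all genes), 27 above 0 and 4 below. Over all tested genes 8083 were above 0 and 7180 below. With Ephb2-KO replicate 3 left out, the median of the 31 genes turned to -0.41. Of the 31 genes, 0 had an unadjusted edgeR p under 0.05, and DESeq2 also called 0 of them. With the replicate number as a block the median of the 31 genes was 0.22, with 25 above 0 and 6 below, where 8084 of all tested genes were above 0 and 7179 below. At an unadjusted p under 0.05, 6 genes were counted, all with Ephb2-KO higher, where 4.38% of all genes were higher and 2.09% lower at that level, but the smallest adjusted p was 0.741. They were Oas3 with 0.77 (SE 0.24), H2-K1 with 0.39 (SE 0.13), H2-D1 with 0.34 (SE 0.11), Oasl2 with 0.42 (SE 0.15), Tap1 with 0.41 (SE 0.17) and B2m with 0.27 (SE 0.12). Oas3 had differences of 1.11, 0.41 and 0.74 in pairs 1, 2 and 3. H2-K1 had 0.31, 0.24 and 0.61. These genes, except Oasl2, were the 5 with the Ephb2-KO library higher in all 3 pairs, which held for 15.6% of all tested genes; 0 of the 31 were lower in all 3 pairs, against 12.3%. Of the 14 fibroblast or stromal markers, 9 were higher in all 3 pairs and 8 had an unadjusted p under 0.05 in the blocked fit, all higher in the Ephb2-KO libraries, and their part in these values was not tested.

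The 3 pairs differed in size and sign. In pair 1 the median log2 difference of Ephb2-KO minus wild type was -0.27, with 8 genes above 0 and 23 below (49.9% of all tested genes were above 0). In pair 2 it was 0.23, with 23 above and 8 below (50.4% of all tested genes were above 0). In pair 3, at passage 18, it was 0.74, with 30 above and 1 below, where the median of all genes was 0.06 and 56.9% were above 0. Ifi27l2a was the 1 gene below 0 in pair 3. For Isg15 the 3 differences were -0.85, 0.10 and 1.34, and for Ifit3 -0.51, 0.42 and 1.25. Usp18 had -1.32, -0.14 and 1.17 and Ifi44 -0.95, -0.18 and 1.37, so that pairs 1 and 3 had opposite signs in all 4 of these genes.

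**Figure D5:**
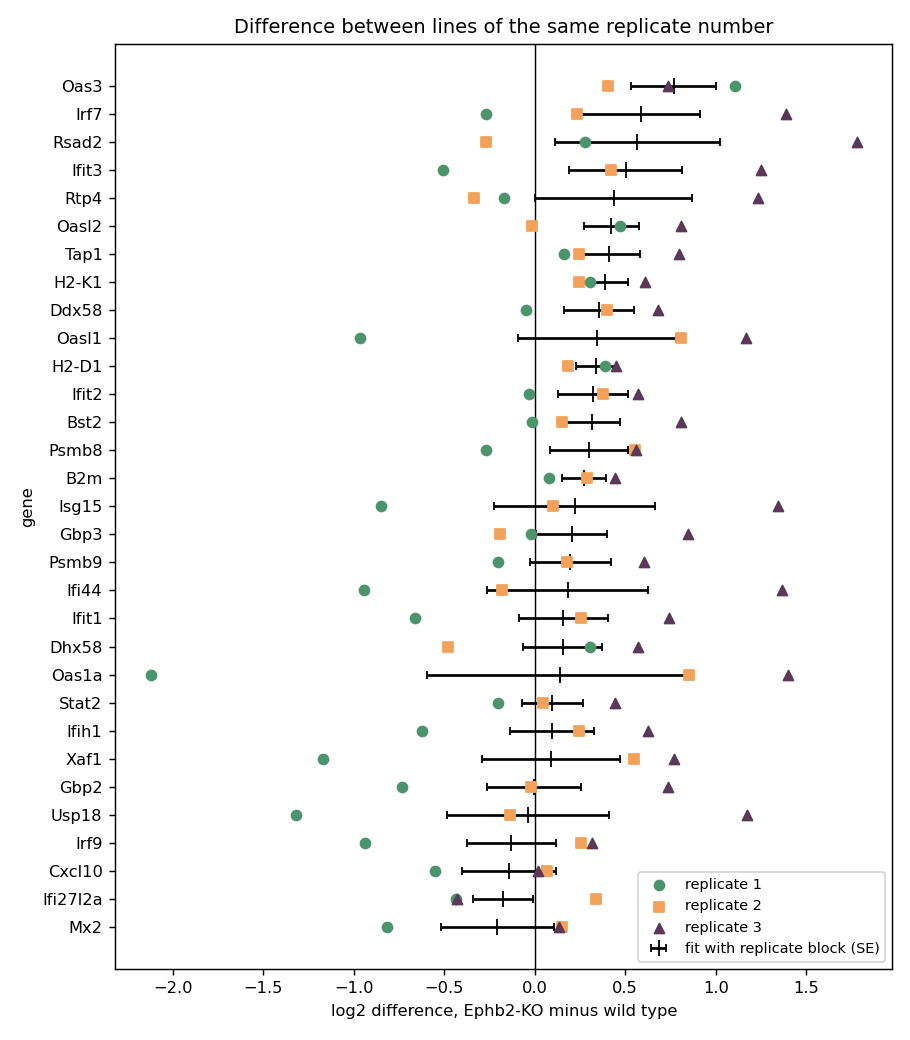
Log2 difference between the Ephb2-KO and the wild-type line of the same replicate number for each tested gene, with 1 point per pair, and the estimate of the edgeR fit with replicate block (black tick, bar: SE). Triangles of pair 3 lie to the right of 0 for 30 of 31 genes, and circles of pair 1 to the left for 23.

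Whether the genotype difference itself depended on passage was tested by an interaction term, in a fit where each genotype has 1 library at passage 18 whose spread is assumed to be that of the others. It called 0 of the 31 genes and 0 genes in all (0.0%) after adjustment, with the smallest adjusted p among the 31 at 1.0. At an unadjusted p under 0.05, 9 of the 31 had a higher difference at passage 18, against 0.518% of all tested genes. Of the 31 estimates 29 were above 0, with a median of 0.69 (0.04 over all genes), where 8492 of all tested genes were above 0 and 6771 below. The 9 were Irf7, Isg15, Usp18, Ifit1, Ifit3, Bst2, Gbp2, Gbp3 and Ifi44. For Isg15 the term was 1.72 (SE 0.47) with an unadjusted edgeR p of 0.00160. With both replicate 1 libraries left out of the blocked fit, 2 pairs remained and 56 genes were called between genotypes (0.367%). Among them were Irf7 at 1.06 (SE 0.25), Isg15 at 0.75 (SE 0.17) and Ifit3 at 0.96 (SE 0.19), all higher in the Ephb2-KO libraries (edgeR adjusted p = 0.0107, 0.00637 and 0.000123). In pairs 2 and 3 the differences were 0.23 and 1.39 for Irf7, 0.10 and 1.34 for Isg15, and 0.42 and 1.25 for Ifit3. With 2 pairs the spread of a gene was taken largely from the other genes. These adjusted p-values therefore do not measure whether the pairs agree. Without both replicate 3 libraries the median of the 31 genes was -0.07 and 0 were called.

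Genes around the list were read from longer lists of the same pathways. Of 11 interferon ligand genes none had enough counts to be tested: Ifnb1 had 4 counts in wild-type replicate 3, 3 in Ephb2-KO replicate 3 and 0 in the other 4 libraries, Ifng had at most 2 and Ifnl2 at most 3, and Ifna2 with the other 7 had 0. At this depth a ligand expressed under 0.0803 to 0.147 CPM, by library, might not be detected. Receptors and signalling genes were all tested, and 7 of 18 rose (38.9%) and 4 fell (22.2%) at passage 18, with a median of 0.07, against 25.0% and 22.96% of all tested genes. Jak1, the kinase bound to the receptors, was at 301, 438 and 260.3 CPM in the wild-type libraries and 361, 392 and 326 CPM in the Ephb2-KO libraries, with a passage difference of -0.34 (SE 0.14, edgeR adjusted p = 0.0599). Stat3, a mediator of cytokine signals, and the receptor chain Ifnar1 fell, with log2 differences of -0.44 (SE 0.14) and -0.56 (SE 0.13), while the feedback inhibitor Socs3 rose by 0.75 (SE 0.15).

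Of the 20 other nucleic acid sensing genes 18 were tested, of which 9 rose and 2 fell. The 4 most abundant were not among those that rose: Trim25, the ligase that acts on RIG-I, had 0.03 (SE 0.13), the RNA editor Adar -0.29 (SE 0.15), Irf3 -0.27 (SE 0.14), and the adaptor Traf3 fell, with -0.73 (SE 0.15, edgeR adjusted p = 0.00254). Of 49 further interferon-induced genes 44 were tested, with 30 higher (68.2%) and 3 lower (6.82%) at passage 18. Over all tested genes the shares were 25.0% and 22.96%. The median of the 44 genes was 1.26, the same as that of the 31 genes. Both lists were chosen with earlier results of these data known. Ifitm3, which blocks the fusion of viruses with the endosome, was at 58.1, 81.7 and 326 CPM in the wild-type libraries and 52.5, 114 and 479 CPM in the Ephb2-KO libraries. Its relative Ifitm2 was at 58.8, 74.1 and 264 CPM in the wild-type libraries and 63.4, 84.8 and 293 CPM in the Ephb2-KO libraries. Both were above all other libraries in replicate 3, with log2 differences of 2.43 (SE 0.15) for Ifitm3 and 1.999 (SE 0.11) for Ifitm2 (edgeR adjusted p = 3.88e-07 and 2.15e-07). Ifi27 rose by 0.47 (SE 0.16), and Tdrd7, which also serves germ cell RNA granules, fell, with -0.46 (SE 0.12).

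Of the 23 other antigen processing genes 20 were tested, with 6 higher (30%) and 5 lower (25%), near the 25.0% and 22.96% of all tested genes. The chaperones Calr, Canx and Pdia3, which fold many glycoproteins, rose by 0.69 (SE 0.12), 0.56 (SE 0.12) and 0.39 (SE 0.12). Tapbp (tapasin), which ties class I molecules to the transporter, was at 509, 831 and 351 CPM in the wild-type libraries and 689, 794 and 399 CPM in the Ephb2-KO libraries. Replicate 3 was lower than the rest in both genotypes, and the gene fell, with -0.89 (SE 0.14, edgeR adjusted p = 0.000420), opposite to Tap1 and B2m. Cd74, the invariant chain of class II, named after its values were seen, was at 7.37, 27.0 and 2.48 CPM in the wild-type libraries and 3.19, 23.4 and 2.36 CPM in the Ephb2-KO libraries, with replicate 2 high as for Gbp2 and a passage difference of -2.22 (SE 0.29, edgeR adjusted p = 0.000108). Of the 7 constitutive proteasome beta subunits, whose place Psmb8 and Psmb9 can take, 1 rose and 0 fell, with a median of 0.08. The 4 most abundant had passage differences of 0.16 (SE 0.12) for Psmb1, -0.01 (SE 0.13) for Psmb4, 0.10 (SE 0.13) for Psmb6 and -0.02 (SE 0.13) for Psmb7, and none of the 4 passed. In none of these lists did edgeR, with or without the block, call a gene between genotypes.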

How the data were processed

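Polyadenylated RNA of 6 lines was sequenced with a directional kit, per the labels' protocols. Whole-number read counts were deposited for each gene. Per the file headers, the authors ran featureCounts 1.4.6-p4 on a merged alignment, over exons grouped by gene name in GENCODE vM3, with strand setting 2, and without the options for multi-mapping or overlapping reads. STAR and FastQC are named in the submitters' processing notes (versions not given in the sources used here) with the build GRCm38.p3. Coordinates are 1-based, from the deposited files. 0 columns belonged to other series.

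Counts were tested in R 4.3.3 with edgeR 4.0.16 (filterByExpr, TMM, robust glmQLFit, glmQLFTest), with Benjamini-Hochberg adjustment over 15263 genes at 0.05. SE is the log2 difference divided by the square root of F. For pair differences and sums of squares, log2 CPM used a prior count of 2, and for the heatmap it used no prior count. Genotype was fitted alone; the replicate number and the passage contrast (replicate 3 minus the mean of 1 and 2) were fitted with genotype and number together. Same-numbered lines deviated together from their genotype means (correlations of 0.596, 0.736 and 0.850 over genes, at most 0.0790 otherwise; bound 0.1), so the numbers pair the libraries and blocked values are given where they change a call; the pairing comes from the titles and this check. P-values of the fit with genotype alone measure spread between these lines. Those of the number, passage and blocked tests measure how far the genotype difference varied between numbers. They do not measure whether independent lines at a passage agree, since spread between numbers is left out of their error. With replicates 1 and 2 sharing 1 term, which keeps that spread, 15 listed genes were called between passages instead of 19. Between any 2 libraries chi-square per degree of freedom was 20.5 to 284, so none is a duplicate. On simulated counts the fits recovered genes that had been changed, with more false calls than the threshold names.

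Genes with a mean of at least 1 CPM are given in every library, and of each further list the 4 with the highest mean. The genes and lists were chosen with earlier results of these data known, and the interaction fit and the fit with 1 passage term were added after the data were seen. Alternatives were other scalings (RLE, total counts), no filter, no robust estimation, DESeq2 1.42.0, the block, and leaving out each library. Figures were drawn with matplotlib 3.10.9. 1 gene of the further lists is not reported here by name.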

Additional observations from a re-analysis of the deposited data

Results flagged for a closer look

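Among the 4 passage 20 libraries, 1 library stood apart from the other 3 for 2 of the 31 genes tested in this way. Ddx58 was at 7.16 CPM in Ephb2-KO replicate 2 against 5.41 to 5.65 CPM in the other 3, a gap of 0.861 of the range. Ifit2 was at 4.50 CPM in the same library against 3.35 to 3.45 CPM, a gap of 0.918 of the range. Both gaps exceeded the 95% critical value for 4 samples, which chance alone passes in about 1 in 20 groups.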

How the results depend on the processing

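No call was made between genotypes without a block in any scaling or filter of edgeR; DESeq2 called 4 genes, the replicate block 4, and the block without both libraries of replicate 1, 2 or 3 called 56, 3 and 4, of which 3, 0 and 0 were listed genes. Leaving out 1 library at a time gave genotype medians over the listed genes from -0.41 to 0.73, and log2 differences from -1.76 to 3.005 for Irf7, -0.50 to 1.19 for Isg15, -2.32 to 3.56 for Ifit3, -0.0269 to 0.74 for H2-K1, -0.26 to 0.92 for H2-D1, -0.41 to 0.98 for B2m and -0.52 to 1.32 for Tap1, each lowest without Ephb2-KO replicate 3. With the replicate block and without replicate 3 of both genotypes the median was -0.0695, Irf7 -0.0198, Isg15 -0.37 and Ifit3 -0.0423. The genotype sign turned in at least 1 of 15 alternatives for 28 of the 31 genes, all but Oasl2, Oas3 and Bst2. Ephb2 ranged from -0.40 to 0.48.

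The count of genes called between replicate numbers ranged from 4442 to 10084 without 1 library, and between passages from 3376 (without wild-type replicate 3; 3792 without Ephb2-KO replicate 3) to 8719, with 3935 when replicates 1 and 2 shared 1 term. Of the listed genes, 15 to 26 were called between passages, all higher except Gbp2 and Gbp3 (lower without Ephb2-KO replicate 1 or 3), 15 of the 19 in all 12 alternatives (not Cxcl10, Isg15, Dhx58 and Stat2), and 0 of the 19 changed sign. Scaling by total counts moved the passage median of all genes by -0.10 and the share of calls that were higher from 52.1% to 44.1%, with 18 listed genes higher and 0 lower. Depth limits the ligand genes and Mx1, Oas1a and Oas2.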
